A study of Mus musculus with 60 samples.

Results

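The interferon response and MHC class I genes described here are 38 genes chosen by name: the class I molecules and the proteins that load them with peptide, 1 class II chain, the interferon receptors, the factors and sensors that feed the pathway, and genes that interferon turns on. All 38 were found by symbol among the 46480 genes of the count tables, and all 38 were among the 17040 genes tested. RNA-Seq was performed on dorsal and ventral dentate gyrus (DG), the hippocampal region that holds the granule neurons, punched from frozen brains of male C57BL6J mice. The mice were weaned on day 22 into standard housing (SH), with a few males in a plain cage, or into an enriched environment (EE), a larger group in a bigger cage with running wheels and changing toys, and were 80 days old at collection. The mice carried no transgene and received no drug. Each sample pooled punches of several mice, and each pool gave 1 dorsal and 1 ventral sample of the same number. The 18 samples compared were dorsal SH (n = 4), dorsal EE (n = 5), ventral SH (n = 4) and ventral EE (n = 5), since SH replicate 3, with *Xist* at 34.3 CPM in the dorsal sample and 11.9 CPM in the ventral one against at most 0.652 CPM elsewhere, was left out in both regions. Between 22919364 and 28301861 fragments per sample were counted on genes.

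Type I interferons signal through a receptor of the *Ifnar1* and *Ifnar2* chains, and interferon gamma through *Ifngr1* and *Ifngr2*. STAT and IRF proteins then bind interferon-stimulated response elements or gamma-activated sites in the promoters of target genes, whose products block viruses and display cytosolic peptides on MHC class I at the cell surface. In the healthy brain this system idles at low levels, with microglia and vessel cells among the main sources, and neurons too carry class I molecules, which have been tied to synapse remodelling in the hippocampus.

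The promoters of the list were read first, for exact matches to DNA words of the pathway. The core of the interferon-stimulated response element was taken as GAAANNGAAA on either strand, and the gamma-activated site as TTCNNNGAA, a word that reads the same on both strands. In RefSeq windows from 250 bases before to 50 bases after the start (GRCm38.p6), 33 of the 38 members had an entry, and *Tap2*, *Nlrc5*, *Cd74*, *Ifi27* and *Usp18* did not. The response element core lay in a window of 15 of these 33 genes (45.5%), against 1079 of 27025 genes of the whole table (3.99%). It was found in 10 of 12 interferon-induced effectors and in 2 of 2 sensors, but in 0 of 4 receptors and 0 of 5 genes of peptide loading and the immunoproteasome. The gamma-activated site lay in 9 of 33 members (27.3%) and in 9.55% of all genes. Of the members that differed between the regions, the core was present in 3 of 6 that were higher in dorsal DG, in 1 of 5 with an entry that were higher in ventral DG, and in 11 of 22 that did not pass the threshold. A match is a run of letters and not a bound site. Only exact matches within these windows were counted, so a gene without one was not shown to lack the element. The windows of the 3 dorsally higher genes, of the 1 ventrally higher gene and of *B2m* are given 5′ to 3′. *B2m* was the member with the highest level per kb of transcript. The core is in capitals (its reverse complement where it lies on the opposite strand).
Ifih1 (chr2:62646206-62646505, minus strand): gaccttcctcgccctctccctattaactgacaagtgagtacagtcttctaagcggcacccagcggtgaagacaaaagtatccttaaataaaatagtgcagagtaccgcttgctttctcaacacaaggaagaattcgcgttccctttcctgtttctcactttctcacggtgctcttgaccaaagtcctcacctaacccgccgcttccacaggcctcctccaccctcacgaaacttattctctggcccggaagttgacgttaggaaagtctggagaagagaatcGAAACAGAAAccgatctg
Ddx58 (chr4:40239776-40240075, minus strand): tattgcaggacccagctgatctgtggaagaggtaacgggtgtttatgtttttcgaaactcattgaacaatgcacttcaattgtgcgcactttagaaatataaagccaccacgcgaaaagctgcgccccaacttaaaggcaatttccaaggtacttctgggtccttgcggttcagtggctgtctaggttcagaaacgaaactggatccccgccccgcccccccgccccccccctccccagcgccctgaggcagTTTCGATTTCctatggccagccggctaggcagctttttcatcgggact
Gbp2 (chr3:142620413-142620712, plus strand): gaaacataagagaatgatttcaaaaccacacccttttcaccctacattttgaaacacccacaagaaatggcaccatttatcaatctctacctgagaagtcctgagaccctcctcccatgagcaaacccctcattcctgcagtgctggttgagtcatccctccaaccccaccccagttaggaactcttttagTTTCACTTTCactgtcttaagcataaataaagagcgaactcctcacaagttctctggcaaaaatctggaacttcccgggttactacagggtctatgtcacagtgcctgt
H2-T23 (chr17:36032652-36032951, minus strand): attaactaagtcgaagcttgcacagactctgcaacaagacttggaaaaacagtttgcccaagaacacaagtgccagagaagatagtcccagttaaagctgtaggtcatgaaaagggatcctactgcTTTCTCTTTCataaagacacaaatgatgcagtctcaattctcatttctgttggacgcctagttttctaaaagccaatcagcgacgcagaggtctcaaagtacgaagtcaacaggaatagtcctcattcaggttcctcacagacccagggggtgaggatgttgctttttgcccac
B2m (chr2:122147437-122147736, plus strand): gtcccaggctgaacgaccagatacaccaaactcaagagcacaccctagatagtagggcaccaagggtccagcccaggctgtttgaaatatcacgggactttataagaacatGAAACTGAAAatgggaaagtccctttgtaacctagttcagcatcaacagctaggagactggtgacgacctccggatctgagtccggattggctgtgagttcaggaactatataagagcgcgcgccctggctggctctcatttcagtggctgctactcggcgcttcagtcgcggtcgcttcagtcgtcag

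The cores begin 139 bases before the RefSeq start of *B2m*, 124 before *H2-T23* and 59 before *Gbp2*, whereas in *Ddx58* and *Ifih1*, the RIG-I-like RNA sensors, they begin 2 and 32 bases after it.

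The 38 genes spanned a wide range of expression. Per kb of effective transcript length, the mean level over the 18 samples ran from 96.7 normalized CPM for *B2m*, the light chain of class I molecules, to 0.177 for *Nlrc5*, the transactivator of class I genes. *B2m* stood well above the classical heavy chains *H2-D1* (20.1) and *H2-K1* (16.5). Between them came *Ifi27* (41.7), a small interferon-induced membrane protein, *Ifngr2* (31.0) and *Psmb10* (23.4), an immunoproteasome subunit. Many effectors of the antiviral response stood near the bottom: *Isg15* was at 1.08 per kb, *Ifit1* at 0.942, *Rsad2* at 0.569 and *Oas1a* at 0.275, the last with 7 to 18 counts per sample. The spread within groups varied widely. The standard deviation averaged 3.04% of the mean for *Ifnar1* and 4.64% for *B2m*, but 26.0% for *Oas1a* and 30.5% for *Isg15*. Level per kb alone did not order it, since *Nlrc5*, the lowest per kb, was at 14.5%. *Ifitm3*, close to *Ifnar1* per kb, was at 13.7%, but it had 124 to 202 counts per sample against 944 to 1292 for *Ifnar1*. Of the interferon ligands listed, *Ifng*, *Ifnk* and *Ifne* had 0 counts in each of the 18 samples, which allows at most 0.131 CPM in any one of them (3 counts, counting error only), and *Ifnb1* had at most 1 count in a sample.

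**Figure D1:**
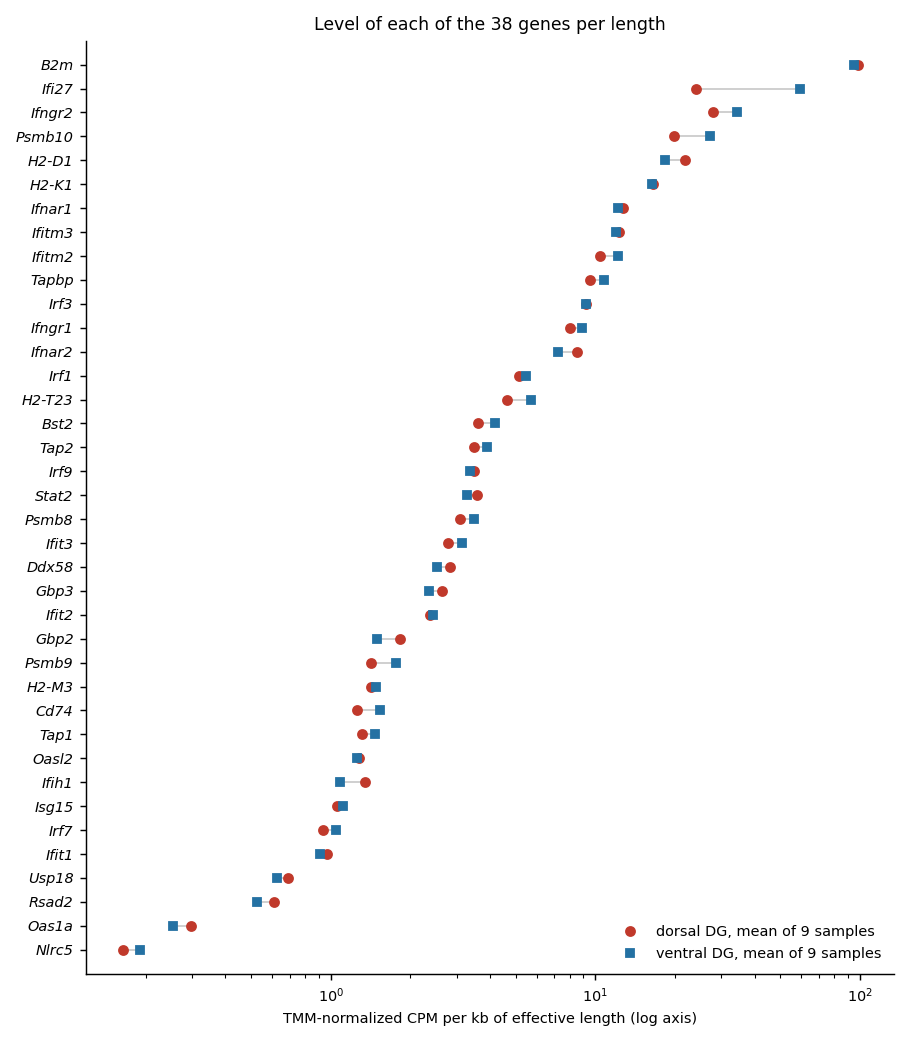
Mean level of each of the 38 genes in dorsal (circles) and ventral (squares) DG, in TMM-normalized CPM per kb of effective length on a log axis, ordered by the mean over the 18 samples. *B2m* leads at 96.7 and *Nlrc5* is last at 0.177, and *Ifi27* shows the widest gap between the regions.

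The comparison of dorsal with ventral DG asked whether the poles of the DG differ in this system. *Ifi27* was 2.50-fold higher in ventral DG, and no other member differed by more than 1.37-fold. Of the 38 members, 13 passed an adjusted p of 0.05 over all tested genes, 6 with more RNA in dorsal and 7 with more in ventral DG. These 13 are 34.2% of the list, against 58.4% of all 17040 genes (29% higher in dorsal and 29.3% higher in ventral). The share of the list was thus below that of all genes. The median standard error of the log2 fold change was 0.07 for members and 0.06 for all genes, and its part in the lower share was not tested. The median log2 fold change of the members (dorsal over ventral) was -0.05, and that of all genes was -0.00463. With the pool as a block, which uses the shared mice, 17 members were called, against 62% of all genes: *Ifnar1* no longer passed (adjusted p = 0.0523), and *Psmb9*, *Cd74*, *Stat2*, *Gbp3* and *Ifitm2* did. In these bulk samples, fewer cells of a type and less RNA per cell cannot be told apart.

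**Figure D2:**
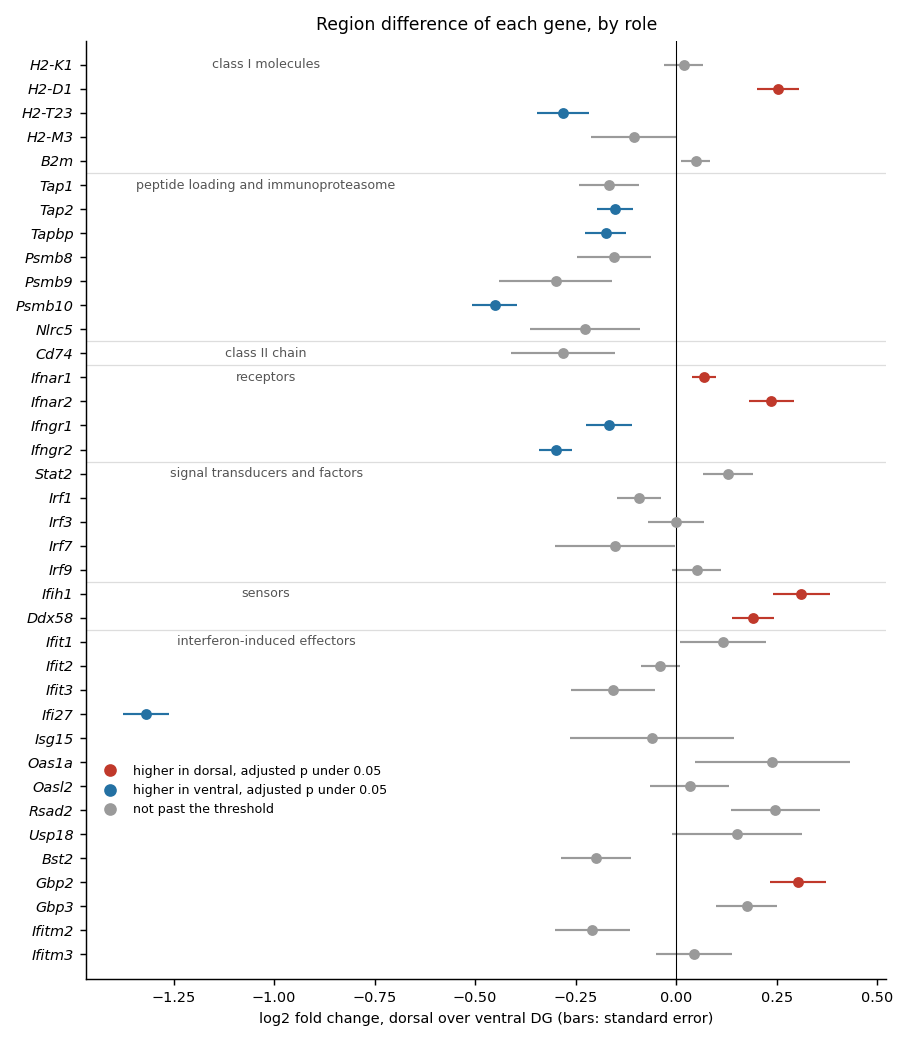
Log2 fold change of dorsal over ventral DG for each of the 38 genes with its standard error (18 samples), grouped by role. *Ifi27* lies far to the ventral side at -1.32, and the 4 receptors split into 2 on each side. All 7 genes of peptide loading and the immunoproteasome lie left of 0. Of these, 3 are past the threshold (42.9%, against 58.4% of all genes).

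Class I molecules went in different directions. *H2-D1* (chr17:35262730-35267499), a classical class I heavy chain, measured 35.6, 36.1, 38.2 and 35.4 CPM in dorsal SH and 35.5, 44.3, 35.7, 39.3 and 36.4 CPM in dorsal EE. In ventral DG it measured 33.0, 28.2, 30.6 and 29.3 CPM in SH and 33.3, 33.5, 34.3, 34.0 and 26.5 CPM in EE. Every dorsal sample exceeded every ventral sample, and the difference was 1.19-fold (log2 fold change 0.25 ± 0.05 SE, adjusted p = 0.000249). *H2-T23*, which encodes the nonclassical molecule Qa-1 recognised by inhibitory receptors of lymphocytes, moved the other way. It measured 5.70, 6.66, 6.92 and 6.29 CPM in dorsal SH and 5.12, 6.75, 6.71, 6.40 and 5.66 CPM in dorsal EE. Ventral values were 7.70, 7.10, 6.52 and 6.65 CPM in SH and 7.80, 9.37, 8.42, 8.03 and 7.59 CPM in EE. The ventral samples were higher in 8 of 9 pools, with some overlap in SH (log2 fold change -0.28 ± 0.06, adjusted p = 0.000745). The other classical chain, *H2-K1*, did not pass (0.02 ± 0.05, adjusted p = 0.761), with 21.9 to 28.5 CPM in dorsal against 21.2 to 26.6 CPM in ventral DG. *B2m* did not pass either (65.4 to 72.8 against 60.4 to 71.9 CPM, adjusted p = 0.257), nor did *H2-M3*, a nonclassical chain that presents formylated peptides (1.19 to 2.69 against 1.57 to 2.11 CPM, adjusted p = 0.407).

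Genes of peptide supply were higher in ventral DG wherever they passed the test, which 3 of 7 did (42.9%, against 58.4% of all genes). *Psmb10* (chr8:105935735-105938444) measured 19.5, 23.6, 21.8 and 21.4 CPM in dorsal SH and 20.8, 23.9, 21.4, 22.1 and 23.7 CPM in dorsal EE. Its ventral values were 35.0, 28.7, 28.1 and 27.2 CPM in SH and 30.1, 34.7, 26.7, 29.9 and 30.2 CPM in EE. The regions did not overlap, and ventral exceeded dorsal in each of the 9 pools (log2 fold change -0.45 ± 0.06, adjusted p = 3.62e-07). *Tapbp* (chr17:33915899-33929292), or tapasin, which bridges class I molecules to the peptide transporter, measured 21.3, 24.3, 20.5 and 21.0 CPM in dorsal SH and 22.7, 23.5, 24.6, 19.0 and 19.8 CPM in dorsal EE. Its ventral values of 26.3, 24.5, 24.6 and 22.8 CPM in SH and 25.6, 22.8, 26.4, 23.9 and 25.1 CPM in EE were higher in 8 of 9 pools but overlapped with the dorsal ones (-0.18 ± 0.05, adjusted p = 0.00534). *Tap2* (chr17:34203527-34216321), a chain of the transporter itself, measured 8.35, 8.60, 8.88 and 9.64 CPM in dorsal SH and 7.88, 8.37, 8.05, 8.69 and 8.81 CPM in dorsal EE. Its ventral values were 9.11, 9.17, 9.93 and 9.94 CPM in SH and 9.98, 9.33, 9.76, 9.84 and 9.15 CPM in EE. Only 1 dorsal sample reached into the ventral range, and ventral was higher in 9 of 9 pools (-0.15 ± 0.05, adjusted p = 0.00612). Without regard to strand *Tap2* kept 54.1% of its counts, and the difference did not pass there (adjusted p = 0.125).

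The partner chain *Tap1* (2.69 to 3.94 CPM in dorsal, 3.13 to 4.46 CPM in ventral DG) narrowly missed the threshold (-0.17 ± 0.07, adjusted p = 0.0583). The immunoproteasome subunits *Psmb8* (2.86 to 4.40 against 3.39 to 4.84 CPM, adjusted p = 0.153) and *Psmb9* (1.04 to 1.36 against 1.06 to 2.54 CPM, adjusted p = 0.0711) did not pass, and *Psmb9* passed with the pool as a block (adjusted p = 0.0447). Like *Tap2*, *Psmb8* lost many counts without regard to strand (ratio 0.604), and it did not pass there either. *Nlrc5* was at 0.456 to 0.856 against 0.634 to 0.823 CPM (adjusted p = 0.218). *Cd74*, the invariant chain of class II molecules and the only class II gene of the list, was at 1.07 to 1.74 against 1.42 to 2.70 CPM, lower in dorsal DG in 9 of 9 pools, and passed only with the block (adjusted p = 0.0659 without and 0.0477 with it).

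All 4 receptor chains passed the test, as did 58.4% of all genes. Those for interferon gamma had more RNA in ventral and those for type I interferon more in dorsal DG. Only *Ifngr2* and *Ifnar2* passed under every alternative tried without a fold limit. *Ifngr2* (chr16:91547072-91565623) measured 67.8, 75.2, 71.3 and 66.5 CPM in dorsal SH and 68.8, 75.3, 69.2, 72.3 and 72.5 CPM in dorsal EE. Ventral SH samples had 99.5, 86.9, 87.4 and 80.5 CPM and ventral EE samples 92.6, 90.1, 82.8, 80.5 and 83.8 CPM. No ventral sample came down to the dorsal range (log2 fold change -0.30 ± 0.04, adjusted p = 1.48e-06). *Ifngr1* (chr10:19591949-19610229), the ligand-binding chain of the same receptor, measured 15.0, 14.1, 13.7 and 14.6 CPM in dorsal SH and 14.2, 18.2, 16.8, 15.0 and 14.8 CPM in dorsal EE. Its ventral values were 17.7, 18.1, 15.5 and 15.5 CPM in SH and 19.7, 17.6, 16.3, 14.8 and 17.1 CPM in EE. The regions overlapped. Dorsal was higher in 0 of 4 SH pools (means 14.3 and 16.7 CPM in dorsal and ventral DG) but in 3 of 5 EE pools (15.8 and 17.1 CPM). Ventral was thus higher in 6 of 9 pools (-0.17 ± 0.06, adjusted p = 0.0163). This call was lost without SH replicate 2 (adjusted p = 0.064) or without EE replicate 1 (adjusted p = 0.0612).

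Of the type I receptor chains, *Ifnar2* differed the more. *Ifnar2* (chr16:91372783-91405589) measured 11.5, 12.8, 10.5 and 12.4 CPM in dorsal SH and 11.1, 13.9, 12.2, 12.8 and 11.5 CPM in dorsal EE. In ventral DG it measured 10.1, 10.1, 9.28 and 11.1 CPM in SH and 9.71, 11.0, 9.21, 10.8 and 10.7 CPM in EE. Dorsal exceeded ventral in 9 of 9 pools although the ranges overlapped (0.24 ± 0.06, adjusted p = 0.00101). The estimated count of *Ifnar2*, which shares out fragments that fit several genes, was 1.44 times its count. *Ifnar1* (chr16:91485238-91507441) lay between 42.3 and 48.1 CPM in dorsal samples and between 41.9 and 44.8 CPM in ventral ones, a difference of 1.05-fold that barely passed (0.07 ± 0.03, adjusted p = 0.0491) and was lost under 17 of 20 alternatives.

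*Ifnar2*, *Ifnar1* and *Ifngr2* lie close together on chromosome 16, in the same orientation and within 192.8 kb. The 5 tested genes of this stretch were looked at together after their values had been seen. Between *Ifnar2* and *Ifnar1* lie *Il10rb*, a shared receptor chain for interleukin 10 and interferon lambda (0.14 ± 0.07, adjusted p = 0.0797), and the noncoding *A930006K02Rik* (-0.10 ± 0.19, adjusted p = 0.67), neither of which passed. *Ifnar2* and *Ifngr2*, which start 174 kb apart, thus differed between the regions in opposite directions. *Ifnar1*, which starts 112 kb from *Ifnar2*, passed narrowly, and not with the pool as a block.

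**Figure D3:**
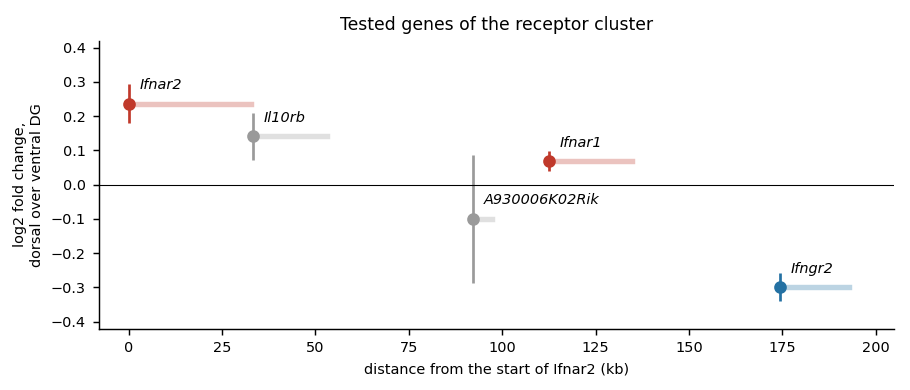
Log2 fold change of dorsal over ventral DG with its standard error for the 5 tested genes of the chromosome 16 receptor cluster, against the distance of each gene's start from that of *Ifnar2* in kb (pale bars: gene bodies). *Ifnar2* is at 0.24, *Ifnar1* at 0.07 and *Ifngr2* at -0.30.

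Neither STAT nor IRF members passed the test between the regions. *Stat2*, a partner of *Irf9* in the complex that type I interferon activates, ranged over 12.6 to 16.8 CPM in dorsal against 11.8 to 15.5 CPM in ventral DG (0.13 ± 0.06, adjusted p = 0.0785). It was higher in dorsal DG in 9 of 9 pools and passed with the pool as a block (adjusted p = 0.0129). *Irf1* (7.81 to 9.65 against 8.08 to 10.3 CPM), *Irf3* (9.57 to 12.9 against 9.86 to 13.7 CPM), *Irf7* (1.08 to 2.32 against 0.986 to 2.12 CPM) and *Irf9* (6.70 to 8.56 against 6.02 to 8.48 CPM) overlapped almost fully, with adjusted p from 0.157 for *Irf1* to 0.998 for *Irf3*.

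Both cytosolic RNA sensors of the list passed, as did 58.4% of all genes. They had more RNA in dorsal DG as the mean of SH and EE, but *Ddx58* was level between the regions in EE. *Ifih1* (chr2:62595798-62646255), which encodes MDA5, a sensor of long double-stranded RNA, measured 6.20, 6.62, 6.79 and 6.22 CPM in dorsal SH and 6.11, 8.37, 6.42, 6.89 and 5.87 CPM in dorsal EE. Ventral samples measured 5.44, 5.52, 4.21 and 4.86 CPM in SH and 5.86, 5.93, 5.68, 5.55 and 5.00 CPM in EE. Dorsal was higher in 9 of 9 pools, with ranges that just overlapped (0.31 ± 0.07, adjusted p = 0.000687). *Ddx58* (chr4:40203773-40239828), which encodes RIG-I, measured 8.71, 8.68, 8.41 and 9.46 CPM in dorsal SH and 8.84, 7.42, 8.37, 7.87 and 8.11 CPM in dorsal EE. In ventral DG the values were 6.82, 6.20, 6.77 and 7.31 CPM in SH and 9.08, 7.88, 7.48, 8.27 and 7.82 CPM in EE. The regions were apart in SH, with means of 8.82 and 6.77 CPM and dorsal higher in 4 of 4 pools, but level in EE, with means of 8.12 and 8.11 CPM and dorsal higher in 2 of 5 pools (mean difference 0.19 ± 0.05, adjusted p = 0.00329). The third family member, *Dhx58*, which encodes the regulator LGP2 and was picked out after its value was seen, was lower in dorsal DG (mean 0.962 against 1.35 CPM, log2 fold change -0.49 ± 0.13, adjusted p = 0.00282).

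Of the 14 interferon-induced effectors, 2 passed between the regions (14.3%, against 58.4% of all genes). *Ifi27* (chr12:103434211-103440239) measured 13.4, 15.3, 14.4 and 16.0 CPM in dorsal SH and 14.1, 18.9, 15.0, 16.6 and 13.8 CPM in dorsal EE. Ventral samples reached 38.8, 40.0, 35.4 and 38.8 CPM in SH and 37.2, 40.4, 41.4, 33.6 and 35.8 CPM in EE. The lowest ventral sample was far above the highest dorsal one, and the log2 fold change was -1.32 ± 0.06 (adjusted p = 1.36e-14). *Gbp2* (chr3:142620602-142638008), a guanylate-binding protein that acts on intracellular pathogens, was instead higher in dorsal DG. It measured 4.34, 4.89, 4.36 and 5.47 CPM in dorsal SH and 3.50, 4.14, 3.62, 4.44 and 3.99 CPM in dorsal EE. In ventral DG its SH samples measured 3.18, 3.68, 3.40 and 3.32 CPM and its EE samples 3.42, 3.71, 3.96, 3.39 and 3.67 CPM. The SH samples of the regions were apart, the EE samples overlapped, and dorsal was higher in 8 of 9 pools (0.30 ± 0.07, adjusted p = 0.000718). Its neighbour *Gbp3* (4.82 to 6.36 against 4.21 to 6.37 CPM) missed the threshold (0.18 ± 0.08, adjusted p = 0.0534) and passed with the block (adjusted p = 0.026).

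**Figure D4:**
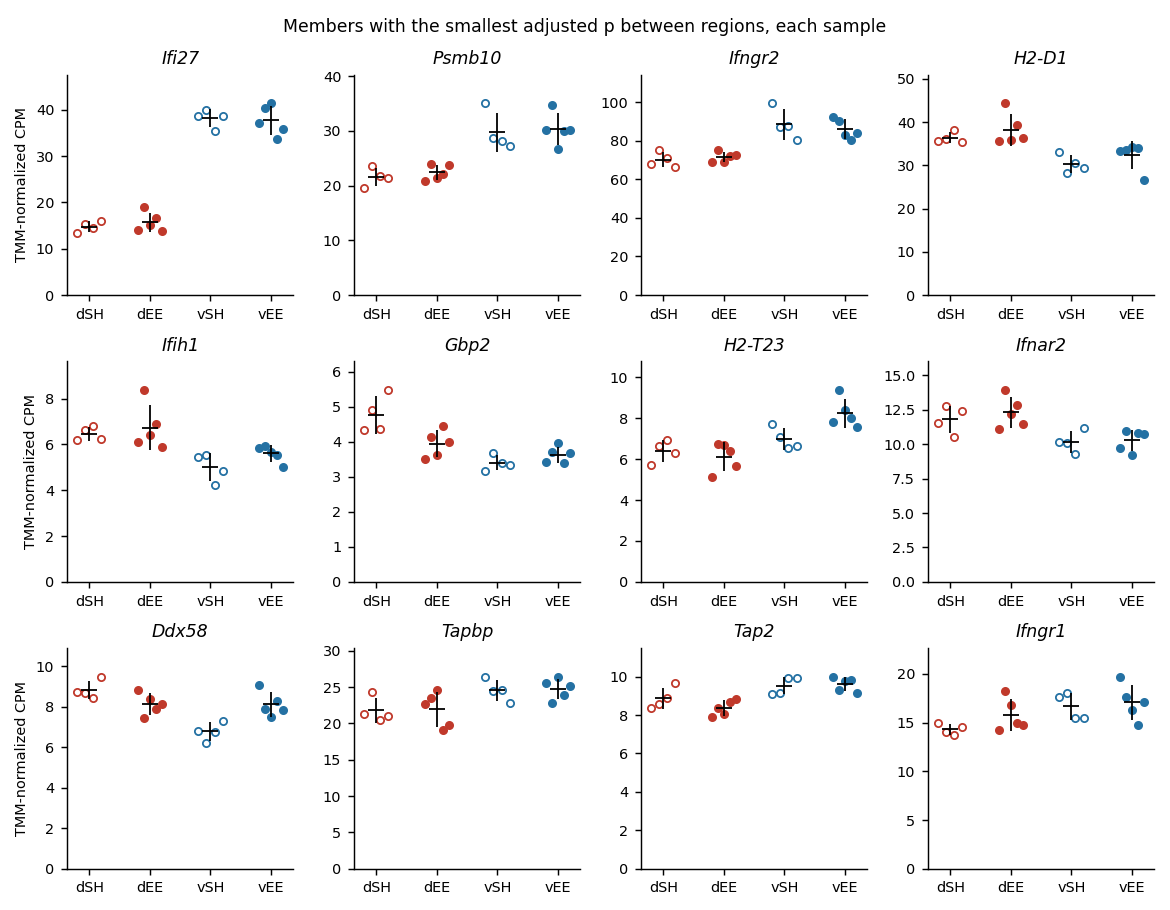
TMM-normalized CPM of each sample in dorsal SH (dSH), dorsal EE (dEE), ventral SH (vSH) and ventral EE (vEE) for the 12 members with the smallest adjusted p between the regions; lines and bars give the mean and SD of 4 or 5 samples. The regions do not overlap for *Ifi27*, *Psmb10*, *Ifngr2* and *H2-D1*, which are 4 of the 38 members, against 18.9% of all genes.

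The other 11 effectors did not pass. *Ifitm2*, a membrane protein that restricts virus entry, ranged over 3.97 to 6.75 CPM in dorsal against 4.42 to 7.74 CPM in ventral DG, lower in dorsal in 9 of 9 pools, and passed with the block (adjusted p = 0.0621 without and 0.00613 with it). Its relative *Ifitm3* did not (5.27 to 8.37 against 4.53 to 7.32 CPM, adjusted p = 0.715). *Bst2*, or tetherin, narrowly missed (1.76 to 2.61 against 2.30 to 2.72 CPM, adjusted p = 0.0516), as did *Rsad2*, or viperin (1.74 to 2.83 against 1.43 to 2.43 CPM, adjusted p = 0.0614). The RNA-binding *Ifit1* (1.97 to 2.87 against 1.62 to 2.91 CPM), *Ifit2* (7.58 to 9.44 against 7.74 to 9.08 CPM) and *Ifit3* (3.60 to 5.52 against 3.81 to 6.79 CPM) had adjusted p from 0.209 to 0.513. The ubiquitin-like *Isg15* (0.447 to 1.01 against 0.333 to 0.918 CPM) and its protease *Usp18* (0.693 to 1.60 against 0.630 to 1.33 CPM) overlapped, with adjusted p of 0.822 and 0.44. *Oas1a* (0.373 to 0.633 against 0.259 to 0.705 CPM, adjusted p = 0.298) and *Oasl2* (1.78 to 2.94 against 1.92 to 2.66 CPM, adjusted p = 0.79), of the oligoadenylate synthetase family, did not pass either. Estimated counts were 1.40 times the counts for *Oas1a* and 1.22 times for *Ifit3*, both of which have close paralogs, so their counts are uncertain. At these depths small differences of the lowest members were not detectable: the standard error of the log2 fold change was 0.20 for *Isg15* and 0.19 for *Oas1a*.

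The wider pathway was followed in 99 further genes, of which 79 were tested. Between the regions 28 of the 79 passed (35.4%, against 58.4% of all genes), 9 of them toward dorsal and 19 toward ventral DG. The proteasome activator subunits *Psme1* (25.8 against 40.5 CPM, dorsal and ventral mean, log2 fold change -0.65 ± 0.05, adjusted p = 6.01e-10) and *Psme2* (17.4 against 24.9 CPM, -0.52 ± 0.05, adjusted p = 2.87e-08), which work with the immunoproteasome, were lower in dorsal DG, like *Psmb10*. All 3 antigen processing genes that passed, of 7, were lower in dorsal DG, as were all 4 that passed of 11 further class I and class II MHC genes. The latter included *H2-DMb1*, a chain of the class II peptide exchanger (0.622 against 0.974 CPM, -0.63 ± 0.16, adjusted p = 0.00217), and the nonclassical *H2-Q7* (-0.54 ± 0.23, adjusted p = 0.0485), a gene of at most 14 counts per sample with near-identical copies, which did not pass with the block (adjusted p = 0.0663). The largest fold was that of *Socs1*, an inhibitor of interferon signalling (0.328 against 0.589 CPM, -0.83 ± 0.17, adjusted p = 0.000207). It was followed by *Ifi27l2a*, a relative of *Ifi27* (0.366 against 0.620 CPM, -0.82 ± 0.21, adjusted p = 0.00222). *Trim21*, an intracellular antibody receptor, was also lower in dorsal DG (2.36 against 3.36 CPM, -0.50 ± 0.09, adjusted p = 5.71e-05). In contrast, *Iigp1*, an immunity-related GTPase, was higher there (4.82 against 3.19 CPM, 0.61 ± 0.09, adjusted p = 5.46e-06).

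By list, 2 of 10 signalling genes passed (1 higher in dorsal and 1 in ventral DG), 3 of 8 further sensors (1 and 2), 12 of 30 further effectors (4 and 8) and 4 of 12 interferon-induced GTPases (3 and 1). These counts are to be read against the 58.4% of all genes that passed. Of the 6 genes listed as ligands or interferon lambda receptor chains only *Il10rb* was tested. Apart from antigen processing and the MHC genes, each list with more than 1 called gene thus held genes of both directions.

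Markers of other cell types differed between the regions as well. All 8 granule neuron markers were detected and higher in dorsal DG, with a summed level of 1298 to 1576 CPM in dorsal against 711 to 972 CPM in ventral samples. All 12 choroid plexus markers and all 5 ependymal markers were higher in ventral DG. The choroid sum was 28.4 to 221 CPM in dorsal against 406 to 1490 CPM in ventral samples, and the ependymal sum 6.49 to 11.9 against 13.2 to 23.7 CPM. No marker of either list was at 0. Of all 77 marker genes 53.2% were called, near the 58.4% of all genes, and the counts of the other lists are to be read against that share. Of the astrocyte markers 4 of 7 were higher in ventral DG, and of the meningeal fibroblast markers 4 of 8. Of the pericyte markers 1 of 5 was higher in dorsal and 2 were higher in ventral DG, and of the oligodendrocyte markers 2 of 7 were higher in dorsal DG. Of the perivascular macrophage markers 1 of 5 was higher in ventral DG. Of the microglial markers 1 of 10 passed (*Aif1*, higher in ventral DG), and the sums were 506 to 604 and 526 to 611 CPM. Endothelial sums were 309 to 377 and 290 to 380 CPM with 1 of 10 markers called. The part of these cells in the regional differences was not tested. Among the ventral samples, the one with the lowest choroid sum had 38.8 CPM of *Ifi27*, 35.0 CPM of *Psmb10* and 99.5 CPM of *Ifngr2*, and the one with the highest, 3.67-fold above it, had 41.4, 26.7 and 82.8 CPM. From the ventral sample with the lowest astrocyte sum to the one with the highest, a 1.38-fold range, all 3 genes went up, *Ifi27* from 33.6 to 40.4 CPM, *Psmb10* from 29.9 to 34.7 CPM and *Ifngr2* from 80.5 to 90.1 CPM. The same held for the microglial sum, a 1.16-fold range, with 38.8 and 40.4, 27.2 and 34.7, and 80.5 and 90.1 CPM. The highest sample of both sums was ventral EE replicate 2, so these are not separate observations. Ventral SH replicate 2, with an astrocyte sum of 8510 CPM, had 40.05 CPM of *Ifi27* and 86.9 CPM of *Ifngr2*. Its *Psmb10*, at 28.7 CPM, was below that of the sample with the lowest astrocyte sum. For the endothelial, pericyte, perivascular macrophage, fibroblast and ependymal sums the lowest and highest ventral samples were the same pair, with *Ifi27* at 35.4 and 41.4 CPM, *Psmb10* at 28.1 and 26.7 CPM and *Ifngr2* at 87.4 and 82.8 CPM. The granule neuron sum had this pair in reverse order, so the pair does not separate these lists. For the oligodendrocyte sum the values were 35.8 and 41.4, 30.2 and 26.7, and 83.8 and 82.8 CPM.

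The comparison of EE with SH asked whether enrichment changes the same genes. None of the 38 members passed in dorsal DG, where 0.716% of all genes did (122 genes), and none in ventral DG, where 0.246% did (42 genes). DESeq2 also called 0 members in either region. At an unadjusted p under 0.05 edgeR gave 2 members in dorsal DG, where 8.81% of all genes were under it, and 5 in ventral DG, where 7.58% were. DESeq2 gave 2 and 6 members under the same unadjusted limit. None of the 79 pathway genes passed in either region. The 95% interval of the EE effect lay within 1.5-fold in either direction for 33 of 38 members in dorsal and for 31 of 38 in ventral DG. In dorsal DG the intervals of *H2-M3*, *Isg15*, *Nlrc5*, *Oas1a* and *Usp18* reached beyond 1.5-fold, and in ventral DG those of *Cd74*, *Ifit1*, *Irf7*, *Isg15*, *Oas1a*, *Rsad2* and *Usp18*.

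**Figure D5:**
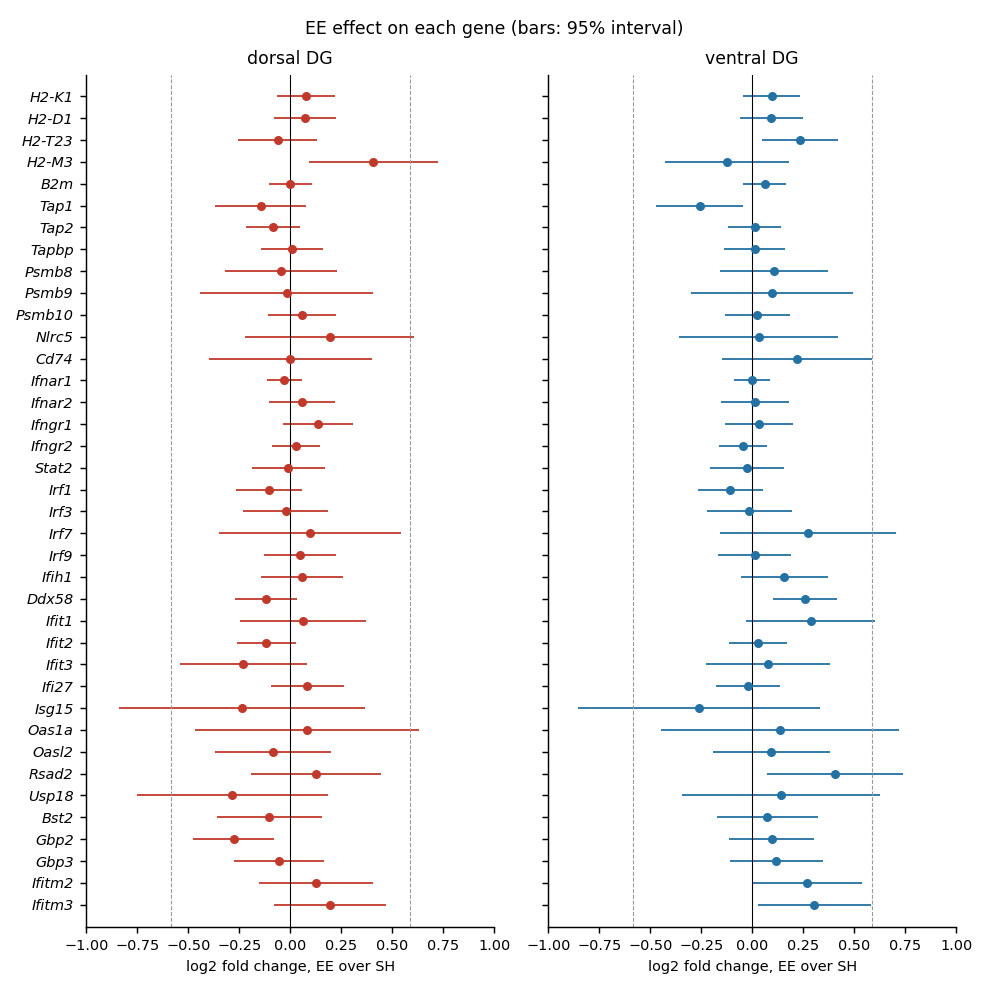
Log2 fold change of EE over SH for each of the 38 genes in dorsal and in ventral DG, with the 95% interval of the edgeR fit (dashed lines: 1.5-fold). No gene passed the adjusted threshold, and the intervals stay within 1.5-fold for 33 genes in dorsal and 31 in ventral DG.

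In dorsal DG the smallest p values belonged to *Gbp2* and *H2-M3*. *Gbp2* measured 4.34 to 5.47 CPM in SH and 3.50 to 4.44 CPM in EE (log2 fold change -0.28 ± 0.10, adjusted p = 0.287), with the ranges overlapping. *H2-M3* measured 1.72, 1.60, 1.62 and 1.19 CPM in SH and 1.80, 1.82, 2.07, 2.69 and 1.82 CPM in EE. Each EE sample was above each SH sample, yet the difference did not pass (0.41 ± 0.15, adjusted p = 0.354). The median EE effect over the members in dorsal DG was 0.00018 on the log2 scale, and 19 of 38 were above 0. Of the 77 marker genes 1 passed there (1.3%, against 0.716% of all genes), a microglial one lower in EE (adjusted p = 0.0441 by edgeR). The median over all markers was 0.01, and by list it ran from -0.40 for choroid plexus to 0.21 for ependymal markers. Their part in the members' values was not tested.

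In ventral DG the smallest p values were those of *Ddx58* and *H2-T23*. *Ddx58* was 7.48 to 9.08 CPM in EE and 6.20 to 7.31 CPM in SH, without overlap, but did not pass (0.26 ± 0.08, adjusted p = 0.247). *H2-T23* was 7.59 to 9.37 CPM in EE and 6.52 to 7.70 CPM in SH (0.23 ± 0.09, adjusted p = 0.492). The EE and SH groups did not overlap for 2 of 38 members in ventral and 1 of 38 in dorsal DG, against 2.45% and 3.99% of all genes. Beside *Ddx58*, the ventral one was *Tap1*, at 3.13 to 3.61 CPM in EE and 3.95 to 4.46 CPM in SH (-0.26 ± 0.10, adjusted p = 0.532). The median over the members was 0.08, against -0.000183 for all genes, and 29 of 38 estimates were above 0. Marker lists moved there as well, by unlike amounts, though none of the 77 markers passed. The median ventral EE effect was 0.09 over all markers. It was 0.04 for microglial, 0.06 for meningeal fibroblast, 0.07 for pericyte, 0.07 for astrocyte and 0.08 for oligodendrocyte markers. Larger medians were 0.12 for endothelial, 0.17 for perivascular macrophage, 0.25 for ependymal and 0.32 for choroid plexus markers. For granule neuron markers it was -0.14. Their part in the members' median was not tested.

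The EE effects of the regions were compared directly as an interaction. No member passed (adjusted p of 0.9999 for each), where 1 of 17040 genes did (0.00587%). DESeq2 also called 0 members. At an unadjusted p under 0.05 there were 4 members by either tool, against 3.25% of all genes by edgeR. The smallest p was that of *Ddx58*, whose EE effect was -0.12 ± 0.07 in dorsal and 0.26 ± 0.08 in ventral DG (difference -0.38, unadjusted p = 0.00159 by the edgeR quasi-likelihood test). *Gbp2* (-0.28 and 0.10), *H2-M3* (0.41 and -0.12) and *H2-T23* (-0.06 and 0.23) followed, with unadjusted p of 0.0135, 0.0197 and 0.0328 in the same edgeR test.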

How the data were processed

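RNA-Seq of dorsal and ventral DG was analysed in 18 samples of 4 groups taken from the labels. The MethylC-seq and TAB-seq samples were not analysed here. The 38 members and the pathway and marker lists were chosen with earlier results of these data known, so their selection is not independent of them. Per the processing notes, the authors used Trim Galore 0.4.0, STAR 2.5.1b and RSEM 1.2.30 with mm10, and deposited for each sample raw counts of fragments per gene, unstranded and by strand. The authors also deposited an expected count (estimated count), which divides multiply matching fragments among genes, with each gene's effective length. TPM and FPKM there were not used. Per sample, 32.6% to 40.9% of the fragments listed in the count tables belonged to no gene (unmapped, multimapping, ambiguous or outside genes) and stayed out of library sizes.

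Counts on the library's strand, kept where a gene exceeded 10 in 2 or more samples, were normalized by TMM and tested by the quasi-likelihood test of edgeR 4.0.16 (R 4.3.3), with the 4 groups in one model and Benjamini-Hochberg adjustment over all genes tested. The region contrast was the mean of the dorsal minus ventral differences of SH and EE. Standard errors were the absolute log2 fold change over the square root of F. CPM values are TMM-normalized, except for *Xist*, which is scaled by the fragments on genes alone. Levels per kb divide by the mean effective length. Gene names (45968 of 46480 matched) and coordinates came from Gencode vM21 on GRCm38 and promoters from RefSeq. Values by sample are given for the 12 called members with the smallest adjusted p, and the 2 members with the smallest p in each EE comparison are given as not past the threshold. The other members are given by range, and of the pathway lists the 8 called genes of largest absolute log2 fold change. Simulated counts with known changes were used to test the procedure.

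Dorsal and ventral samples of a pool come from the same mice according to the study. Their deviations from the group means correlated between -0.084 and 0.189 over 9 pools. No 2 of the samples held identical values, and counts within groups differed by more than sampling noise. Since each sample is a pool of mice, p values measure the spread between pools. Alternatives were the likelihood ratio test, DESeq2 1.42.0, RLE size factors, 2 other filters, robust dispersion, all 20 samples, the replicate block, the estimated or unstranded counts, a fold limit, a joint region test, separate fits and fits without each pool.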

Additional observations from a re-analysis of the deposited data

Results flagged for a closer look

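In 8 of the 152 groups of a member's samples, 1 sample lay far from the others by Dixon's criterion, where chance gives about 1 in 20 (5%). *H2-K1* was 28.5 CPM in dorsal EE replicate 2, against 22.8 to 24.1 CPM in the other dorsal EE samples. This sample was the highest of dorsal EE for 19 of the 38 members, and its share over all genes was not counted. It also had the highest microglial (604 CPM), endothelial (377 CPM) and perivascular macrophage (11.1 CPM) marker sums of dorsal EE. The same held for the choroid plexus (74.5 CPM), meningeal fibroblast (80.6 CPM) and oligodendrocyte (3159 CPM) sums. Its granule neuron sum (1298 CPM) was the lowest. Its pericyte, ependymal and astrocyte sums were not the highest. The part of these cells was not tested. *H2-D1* was 26.5 CPM in ventral EE replicate 5 (others 33.3 to 34.3 CPM), and in the same sample *Ifitm3* was 5.26 CPM (others 7.07 to 7.32 CPM). *Tap1* was 4.46 CPM in ventral SH replicate 4 (others 3.95 to 3.98 CPM), and *Oasl2* was 1.92 CPM in ventral SH replicate 2 (others 2.39 to 2.44 CPM). In dorsal SH, *Cd74* was 1.07 CPM in replicate 4 (others 1.44 to 1.51 CPM) and *Ifnar1* was 48.1 CPM in replicate 5 (others 45.3 to 45.7 CPM). *Isg15* was 0.839 CPM in dorsal EE replicate 5 (others 0.447 to 0.552 CPM), a gene with 9 to 27 counts per sample.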

How the results depend on the processing

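Over 20 alternatives (the fold requirement aside) the regional differences of *Ifi27*, *Psmb10*, *Ifngr2*, *H2-D1*, *Ifih1*, *Gbp2*, *H2-T23*, *Ifnar2*, *Ddx58* and *Tapbp* kept their direction and passed the threshold, and no member or pathway gene passed in an EE comparison or the interaction. *Ifnar1* passed in 3 of the 20, *Ifngr1* in 18 and *Tap2* in 19, while *Bst2* and *Gbp3* passed in 5, *Ifitm2* in 4, *Psmb9* and *Rsad2* in 3, *Cd74* and *Stat2* in 2 and *Tap1* in 1. With a fold of at least 20% also required, 6 members (2 higher in dorsal, 4 in ventral DG) and 5573 of all genes were called between the regions. Leaving out 1 pool at a time gave 11 to 17 members (5 to 7 higher in dorsal, 6 to 10 in ventral DG), 23 to 30 pathway genes and 9019 to 9974 of all genes. With all 20 samples 16 members were called. The count of all genes called for EE in dorsal DG (122) became 225 with the likelihood ratio test, 188 with DESeq2 and 74 to 130 without 1 pool (80, 79, 74 and 77 without SH replicates 1, 2, 4 and 5). In ventral DG (42) it became 95 with the likelihood ratio test, 87 with DESeq2, 80 without a filter, 25 in a separate fit and 18 to 50 without 1 pool (24 without SH replicate 2, 18 without SH replicate 4 and 26 without EE replicate 3). For the interaction (1) it was 0 without any 1 of the 9 pools. The cause of these changes was not tested.

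No label says what the numbers shared by EE and SH samples mark. Same-numbered samples of a region correlated between 0.0815 and 0.175 in their deviations over 8 pairs, 7 of them over 0.1, and 9 of 16 samples correlated best with their own number. With the replicate block, 243 genes were called for EE in dorsal and 105 in ventral DG, and 2 for the interaction with the pool as a block. In the region test the pool block changed no call of a member other than those given in the text.

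Small differences changed sign in some fits. For *Irf3* the log2 fold change became 0.00233 with filterByExpr, 0.0405 with all 20 samples, 0.0013 with the pool block, 0.0158 with estimated counts, 0.0197 with unstranded counts and -0.0396 to 0.0394 without 1 pool. *Isg15* became 0.0735 with all 20 samples, 0.00248 with estimated counts and -0.228 to 0.093 without 1 pool. *Usp18* became -0.0817 with unstranded counts, and *H2-K1* spanned -0.00845 (without EE replicate 2) to 0.0518 over the fits without 1 pool. None of these 4 genes had passed the threshold.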

Other observations

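SH replicate 3 entered no comparison, and its values are given here as normalized together with all 20 samples. *Ifi27* was 16.7 CPM in its dorsal and 35.8 CPM in its ventral sample, *Psmb10* 22.4 and 27.0 CPM, and *Ifngr2* 71.6 and 83.6 CPM. *H2-D1* was 41.6 and 31.0 CPM. *Ifih1*, at 6.15 and 6.19 CPM, and *H2-T23*, at 7.46 and 7.45 CPM, were nearly level between the regions in this pool.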
